A study of Mus musculus with 8 samples.

Results

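The messenger RNAs of 10 glycolytic enzymes, Hk1, Hk2, Pfkp, Pfkl, Aldoa, Tpi1, Pgk1, Pkm, Ldha and Ldhb, were examined in cultured mouse optic nerves kept with or without lithium. A probe set, a group of array probes that reads 1 transcript, was taken where it was annotated to 1 of these symbols and to no other gene. This gave 26 probe sets for the 10 genes, out of 45037 probe sets and 18193 named genes tested. The probe set with the highest mean log2 signal over the 8 arrays stood for its gene, and the other 16 are given beside it. The lithium group held 4 samples of optic nerve from C57BL/6 mice aged 35 to 45 days, kept for 3 days in organotypic culture in medium with 20 mM lithium chloride. The control group held 4 samples of the same strain and age that spent 3 days in the same medium with saline. The labels give 6 nerves for each sample. The methods of the study give no number per sample, and their count of nerves for the transcriptomic analysis is smaller than 4 samples of 6 nerves would need. The methods also give a different strain and state that the retina stayed attached in culture. No source states that the samples came from separate cultures or animals, and the p-values below therefore cover the spread among these 8 samples, part or all of which may be technical.

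Glycolysis splits glucose into pyruvate in the cytosol and yields ATP and NADH without oxygen. Hexokinases trap glucose as glucose 6-phosphate, phosphofructokinases commit it to breakdown, aldolase and triose phosphate isomerase split and interconvert the sugar phosphates, phosphoglycerate kinase and pyruvate kinase make ATP, and lactate dehydrogenases turn pyruvate into lactate and back. In white matter, glycolysis in astrocytes and oligodendrocytes is known as a source of lactate for axons. Several of these genes are textbook targets of HIF-1, the hypoxia-inducible transcription factor.

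None of the 10 genes was called changed by lithium with limma at an adjusted p under 0.05, against 3.23% of all 18193 genes called by the same rule (1.18% higher and 2.05% lower), and 0 of the 10 reached an unadjusted p under 0.05, against 22.0% of all genes. None of the 26 probe sets was called either, against 2.33% of all probe sets, or 0.204% with a fold of at least 2 and a level of at least 200 also required. Lithium and control arrays overlapped for each of the 10 genes and for all 26 probe sets, while the groups did not overlap for 15.4% of all genes, and of all probe sets 5.52% lay wholly higher with lithium and 6.44% wholly lower. Among the 5431 genes whose higher group mean was at least 200, the level at which the members lie, 3.77% were called and 18.5% did not overlap. The members' log2 fold changes, lithium minus control, ranged from -0.29 for Hk1 to 0.14 for Ldhb, with a median of -0.01, beside a median of 0.00 over all genes. Their median size without regard to sign was 0.03, against 0.25 over all genes and 0.17 over genes at a level of 200. The 95% interval of the fold change lay within 2-fold in both directions for all 10 genes, and within 1.5-fold for 8 of them, all but Hk1 and Ldhb. These intervals are not adjusted for the number of genes.

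**Figure D1:**
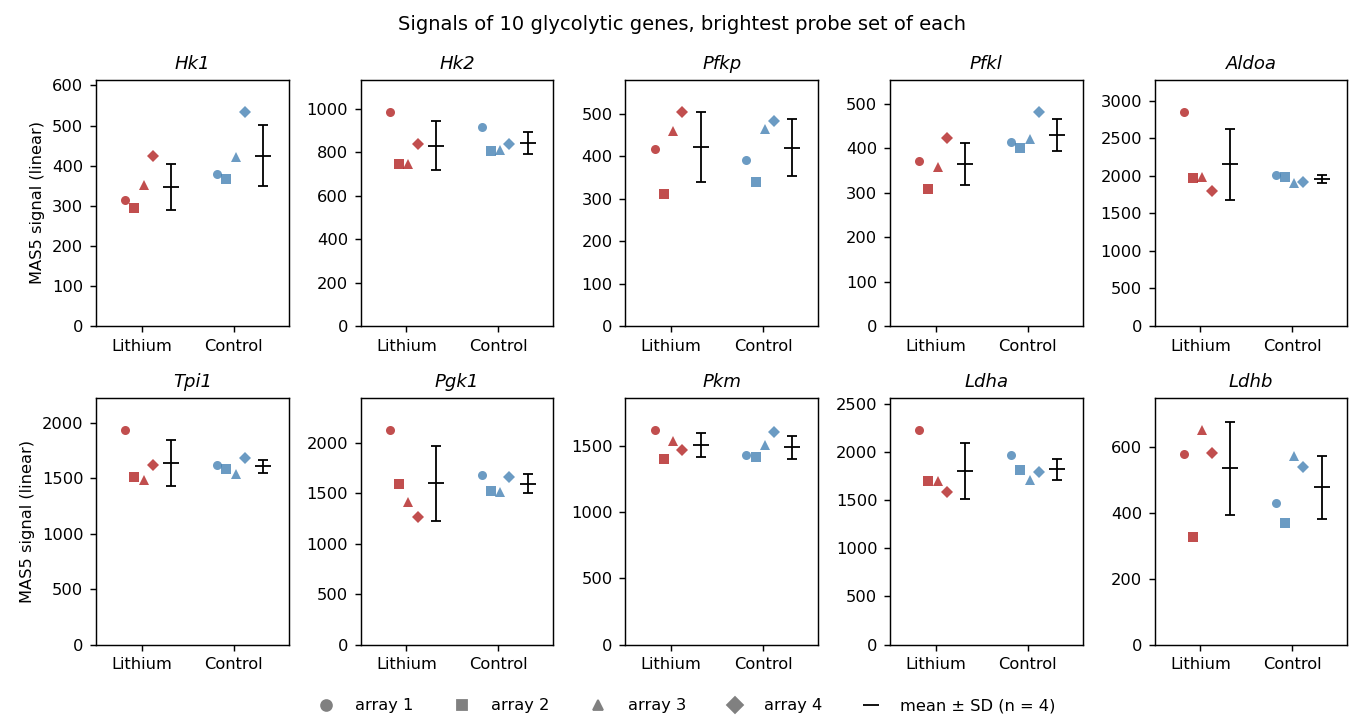
MAS5 signal on a linear scale (y axis, from 0) of the brightest probe set of each of the 10 genes on the 4 lithium arrays (left) and the 4 control arrays (right). Symbols mark the array number and the bar gives the mean ± SD (n = 4). The groups overlap in every panel, and lithium array 1 is the highest of 8 for Hk2, Aldoa, Tpi1, Pgk1, Pkm and Ldha.

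Lithium array 1 stood apart from the other 7 in the upper range of signals. Its 99th percentile was a signal of 1623, against 1236 to 1391 on the other arrays, although all arrays were scaled to a trimmed mean of 100. Of the 594 genes with a mean signal of at least 1000, 85.0% lay above their own mean over 8 arrays on that array, with a median deviation of 0.27 on the log2 scale. The members' results are therefore also given without it. Signal at the 3' end of Gapdh over that at its 5' end, a measure of RNA length read by control probe sets, was on the log2 scale 0.43 ± 0.07 on lithium arrays and 0.37 ± 0.02 on control arrays (SD, n = 4 each, exact permutation p = 0.1714, two-sided). Defining markers of the nerve's glia were present in both groups: the signals of 10 astrocyte markers summed to 6675 to 7884 on lithium arrays and 7481 to 8096 on control arrays, and those of 9 oligodendrocyte markers to 11209 to 14767 with lithium and 11091 to 12015 in controls. The 9 retinal and neuronal markers measured summed to 123 to 215 with lithium and 135 to 228 in controls. Of the 9, 5 had a negative fold change. The photoreceptor gene Pde6a lay under the background on all arrays. Gnat1 lay over it on 3 lithium and 3 control arrays, and Rcvrn on 4 lithium and 2 control arrays. Nefm, a neurofilament gene and the 1 of the 9 called, averaged 14.4 ± 3.57 with lithium and 5.32 ± 1.03 in controls (SD, n = 4 each, limma adjusted p = 0.03739, against 1.18% of all genes called higher). Its control signals of 6.20, 5.75, 5.49 and 3.83 lay near the background of those arrays, at 5.64, 3.74, 2.84 and 2.13. The sums of 10 meningeal fibroblast markers did not overlap, at 927 to 2606 with lithium and 3710 to 5722 in controls. Nor did those of 9 proliferation markers, at 115 to 305 with lithium and 1025 to 2641 in controls. The sums of 5 oligodendrocyte precursor markers were 395 to 800 with lithium and 894 to 1170 in controls, also without overlap. That gap rested on Pdgfra, which is on the fibroblast list too. Of the 5, 2 lay wholly lower, beside 8.92% of all genes, and Cspg4 had a positive fold change. The sums of 9 endothelial markers were 177 to 392 with lithium and 441 to 726 in controls, again without overlap. Their gap rested on Flt1, at 37.0 to 145 with lithium and 254 to 368 in controls. Of the 9, 3 lay wholly lower and 2 had a positive fold change. In whole nerve, fewer cells of a type and less RNA per cell cannot be told apart, and the part of these markers in the members' values was not tested.

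The 3 isozyme pairs among the members are shown by the DNA before their starts, because the isozymes of a pair carry out the same step and differ in their regulation. Windows run from 250 bases before to 50 bases after each annotated start and come from RefSeq on GRCm38.p6; all 10 members matched, with 15 windows. The Hk2 window is chr6:82774405-82774704, minus strand. The 2 Hk1 windows are chr10:62340372-62340671 and chr10:62379859-62380158, minus strand. The Pfkp window is chr13:6648722-6649021 and the Pfkl window chr10:78009758-78010057, both minus strand. Of the 2 Ldha windows the one at chr7:46845554-46845853, plus strand, is shown, and the Ldhb window is chr6:142507908-142508207, minus strand. Each is written 5′ to 3′, and capitals mark ACGTG or GCGTG, the core letters that HIF-1 binds, on either strand.
Hk2: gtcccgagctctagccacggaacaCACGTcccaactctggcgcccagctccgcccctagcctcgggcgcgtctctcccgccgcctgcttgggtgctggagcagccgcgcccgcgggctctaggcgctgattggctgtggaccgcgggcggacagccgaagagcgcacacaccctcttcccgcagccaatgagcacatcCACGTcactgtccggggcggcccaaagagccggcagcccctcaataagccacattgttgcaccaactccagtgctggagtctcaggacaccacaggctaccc
Hk1, first window: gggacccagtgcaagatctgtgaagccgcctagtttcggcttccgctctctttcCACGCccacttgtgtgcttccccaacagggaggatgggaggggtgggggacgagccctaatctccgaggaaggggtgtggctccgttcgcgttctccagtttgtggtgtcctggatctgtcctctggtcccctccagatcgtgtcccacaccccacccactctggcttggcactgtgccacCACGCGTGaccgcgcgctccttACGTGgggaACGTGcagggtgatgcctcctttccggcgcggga
Hk1, second window: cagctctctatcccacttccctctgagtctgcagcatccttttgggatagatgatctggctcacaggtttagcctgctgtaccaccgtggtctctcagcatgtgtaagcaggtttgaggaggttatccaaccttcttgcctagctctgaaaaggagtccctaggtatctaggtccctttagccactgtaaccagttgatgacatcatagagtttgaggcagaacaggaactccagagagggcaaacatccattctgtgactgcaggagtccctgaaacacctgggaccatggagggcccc
Pfkp: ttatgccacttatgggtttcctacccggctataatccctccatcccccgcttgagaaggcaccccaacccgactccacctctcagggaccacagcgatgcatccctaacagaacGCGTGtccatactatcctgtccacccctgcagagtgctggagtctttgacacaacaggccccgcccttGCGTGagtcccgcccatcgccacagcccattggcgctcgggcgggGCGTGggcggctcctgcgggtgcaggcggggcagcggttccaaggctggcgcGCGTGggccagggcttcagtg
Pfkl: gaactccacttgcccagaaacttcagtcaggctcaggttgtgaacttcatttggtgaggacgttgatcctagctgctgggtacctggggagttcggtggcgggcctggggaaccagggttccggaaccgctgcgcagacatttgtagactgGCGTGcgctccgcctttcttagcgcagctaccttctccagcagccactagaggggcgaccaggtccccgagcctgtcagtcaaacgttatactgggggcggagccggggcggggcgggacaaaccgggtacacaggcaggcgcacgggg
Ldha: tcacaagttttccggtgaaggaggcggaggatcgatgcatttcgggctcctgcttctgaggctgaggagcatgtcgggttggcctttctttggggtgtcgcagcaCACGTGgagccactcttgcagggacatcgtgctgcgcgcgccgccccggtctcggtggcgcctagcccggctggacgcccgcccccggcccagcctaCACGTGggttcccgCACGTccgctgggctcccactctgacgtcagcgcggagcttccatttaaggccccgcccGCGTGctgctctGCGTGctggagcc
Ldhb: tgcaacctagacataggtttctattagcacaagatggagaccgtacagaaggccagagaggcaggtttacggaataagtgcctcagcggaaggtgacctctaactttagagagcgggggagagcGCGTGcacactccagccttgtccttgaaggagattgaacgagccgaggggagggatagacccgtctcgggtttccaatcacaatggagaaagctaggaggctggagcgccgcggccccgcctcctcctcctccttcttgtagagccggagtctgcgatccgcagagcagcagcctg

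ACGTG or GCGTG on either strand was found in 11 of the 15 member windows and in at least 1 window of 9 of the 10 members, all but Tpi1. Over all 32851 windows of 27025 genes, 43.8% of windows and 46.7% of genes held 1. The first Ldha window held the most, 5 matches to ACGTG and 2 to GCGTG, and it was the 1 member window with CACGTG, a letter run that contains ACGTG on both strands and so counts as 2 matches. CACGTG was found in 7.2% of all windows. The Hk1 windows differed, with 5 matches in the first, of which a CACGC and a GCGTG share letters, and 0 in the second. The Pfkp window held 4 matches and the Pfkl window 1. A match is a description of the letters only and says nothing of binding in these nerves.

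The 2 hexokinases catalyse the entry step, Hk1 as the isozyme of brain and most tissues and Hk2 as the form typical of muscle and growing cells. Hk1 (chr10:62268855-62379920) had signals of 315, 294, 351 and 425 on lithium arrays 1 to 4, against 379, 367, 421 and 534 on control arrays 1 to 4. Lithium values were lower on average but overlapped, since lithium array 4 lay above 3 of the control arrays. The log2 fold change was -0.29 (SE 0.16, 95% interval -0.68 to 0.09, limma adjusted p = 0.4187), and -0.25 without lithium array 1, with values from -0.40 without lithium array 4 to -0.18 without control array 4. A dimmer Hk1 probe set, near a signal of 50, gave -0.17. Hk2 (chr6:82725025-82774454) had signals of 985, 746, 744 and 839 with lithium, against 915, 804, 810 and 838 in controls. Lithium array 1 was the highest of the 8 and lithium arrays 2 and 3 the lowest. Its log2 fold change was -0.03 (SE 0.11, 95% interval -0.28 to 0.22, limma adjusted p = 0.9402), and -0.12 without lithium array 1.

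Phosphofructokinase, the main control point of the pathway, is built from platelet-type (Pfkp), liver-type (Pfkl) and muscle-type subunits. Pfkp (chr13:6579874-6649060) had signals of 417, 311, 459 and 505 with lithium, against 392, 338, 465 and 484 in controls. The order of the arrays by number was the same in both groups, lowest on array 2 and highest on array 4. Its log2 fold change was 0.00 (SE 0.18, 95% interval -0.43 to 0.44, limma adjusted p = 1), and 0.00 without lithium array 1. A second Pfkp probe set, with mean signals of 24.9 with lithium and 23.7 in controls, gave 0.07, and the third, at 14.0 with lithium and 9.22 in controls, gave 0.54 with an interval of -0.15 to 1.23. Pfkl (chr10:77986947-78009807) had signals of 370, 307, 358 and 423 with lithium, against 414, 400, 421 and 482 in controls. Of the 4 lithium arrays, 3 lay below every control array, and lithium array 4 lay above 3 of them. The log2 fold change was -0.24 (SE 0.11, 95% interval -0.51 to 0.02, limma adjusted p = 0.3275), the lowest unadjusted p of the members at 0.06905, and -0.25 without lithium array 1. The other Pfkl probe sets disagreed in sign, with -0.46 for one averaging 281 with lithium and 376 in controls and 0.23 for one averaging 29.9 with lithium and 24.4 in controls.

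Aldolase A, which cleaves fructose 1,6-bisphosphate, and triose phosphate isomerase, which interconverts the resulting trioses, are single main enzymes of their steps in most tissues. Aldoa (chr7:126795234-126800994) had signals of 2853, 1979, 1987 and 1793 with lithium, against 2013, 1982, 1912 and 1923 in controls. Lithium array 1 was 48.7% above the mean of the other lithium arrays, and the remaining 7 arrays lay between 1793 and 2013. This gave a log2 fold change of 0.11 (SE 0.14, 95% interval -0.23 to 0.46, limma adjusted p = 0.7537), and -0.03 without lithium array 1. The other 4 Aldoa probe sets gave -0.08 to 0.07, and all 5 are of the kind that can cross-hybridise with related transcripts. Tpi1 (chr6:124810586-124814158) had signals of 1932, 1510, 1486 and 1617 with lithium, against 1621, 1581, 1540 and 1684 in controls. Lithium arrays 2 and 3 were the lowest of the 8 and lithium array 1 the highest. Its log2 fold change was 0.02 (SE 0.10, 95% interval -0.21 to 0.24, limma adjusted p = 0.9713), and -0.06 without lithium array 1, and the other 2 Tpi1 probe sets gave -0.05 and -0.03.

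Phosphoglycerate kinase and pyruvate kinase are the ATP-forming enzymes of the lower pathway. Pgk1 (chrX:106187100-106203699) had signals of 2122, 1590, 1413 and 1264 with lithium, against 1683, 1517, 1509 and 1664 in controls. The lithium arrays spanned the whole range, the highest and the 2 lowest of the 8 being among them. This gave a log2 fold change of -0.02 (SE 0.16, 95% interval -0.40 to 0.36, limma adjusted p = 0.9925), and -0.17 without lithium array 1. The other Pgk1 probe sets, also of that kind, gave -0.30 (limma adjusted p = 0.3317) and -0.13. Pkm (chr9:59656576-59679372) had signals of 1622, 1407, 1540 and 1472 with lithium, against 1433, 1417, 1512 and 1610 in controls. It was the steadiest member, with a range of 0.20 on the log2 scale over 8 arrays. Its log2 fold change was 0.02 (SE 0.07, 95% interval -0.15 to 0.19, limma adjusted p = 0.9633), which corresponds to a change between -10.1% and 13.7%, and -0.02 without lithium array 1. The array value does not separate the spliced forms of Pkm.

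Lactate dehydrogenase is a tetramer of Ldha subunits, known to favour the making of lactate, and Ldhb subunits, known to favour its use. Ldha (chr7:46842274-46855627) had signals of 2222, 1698, 1697 and 1580 with lithium, against 1962, 1810, 1702 and 1794 in controls. Lithium array 1 was the highest of the 8 and the other lithium arrays were the 3 lowest. The log2 fold change was -0.03 (SE 0.12, 95% interval -0.30 to 0.25, limma adjusted p = 0.9676), and -0.13 without lithium array 1. Ldhb (chr6:142490249-142507957) had signals of 578, 326, 649 and 581 with lithium, against 430, 367, 572 and 537 in controls. It had the widest range of the members, 0.99 on the log2 scale, with array 2 the lowest of each group and array 3 the highest. This gave a log2 fold change of 0.14 (SE 0.25, 95% interval -0.46 to 0.74, limma adjusted p = 0.8427), 0.08 without lithium array 1, 0.36 without lithium array 2 and 0.02 without control array 2. All 4 Ldhb probe sets gave a positive value, from 0.14 to 0.29, with adjusted p-values of 0.6297 to 0.8427.

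**Figure D2:**
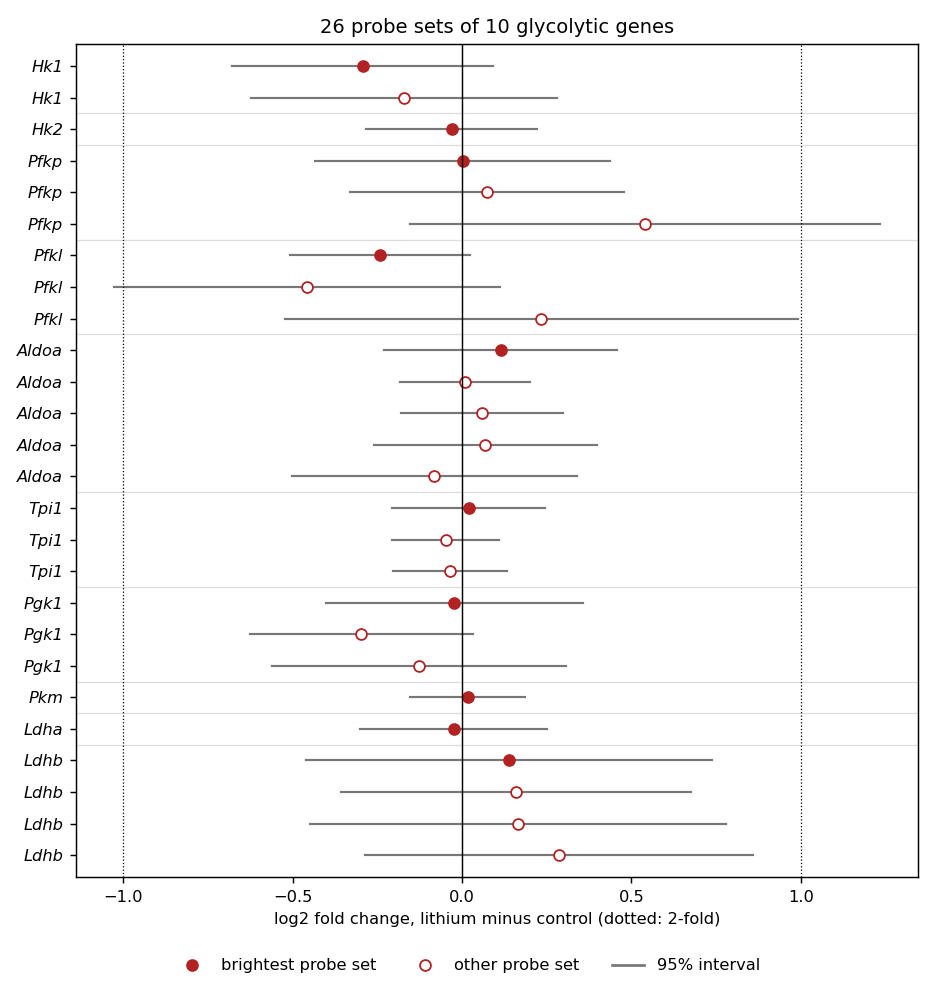
Log2 fold change, lithium minus control (x axis), with its 95% interval for the 26 probe sets (y axis, grouped by gene), filled where the probe set is the brightest of its gene. All 26 intervals include 0, and those of the 10 filled points lie within the dotted 2-fold lines.

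Gapdh, the enzyme between triose phosphate isomerase and phosphoglycerate kinase, was read by 3 control probe sets of the array that were outside the tests. The 3' one had signals of 2842, 1934, 1799 and 1665 with lithium, against 1999, 1923, 1823 and 1809 in controls, again highest on lithium array 1. The log2 differences of the 3 were 0.09, 0.08 and 0.04, with exact permutation p-values of 0.8571, 0.9143 and 0.9429 (two-sided, n = 4 each).

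The deviations of the members from their own means fell into recurring patterns over the arrays. On lithium array 1, Aldoa, Pgk1, Ldha, Tpi1 and Hk2 lay 0.24 to 0.49 above their means on the log2 scale, beside 0.27 for the median gene at a signal of 1000, while Hk1 lay 0.27 below its mean. Arrays numbered 2 were the lowest of their group for Hk1, Pfkp, Pfkl and Ldhb in both groups. Arrays numbered 4 were the highest of their group for Hk1, Pfkp and Pfkl in both groups. After quantile normalization, which gives every array the same distribution of signals, the log2 fold changes of Aldoa, Tpi1, Pgk1, Pkm and Ldha were 0.01, -0.04, -0.11, -0.04 and -0.10, and the 95% interval of Aldoa was -0.12 to 0.14.

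**Figure D3:**
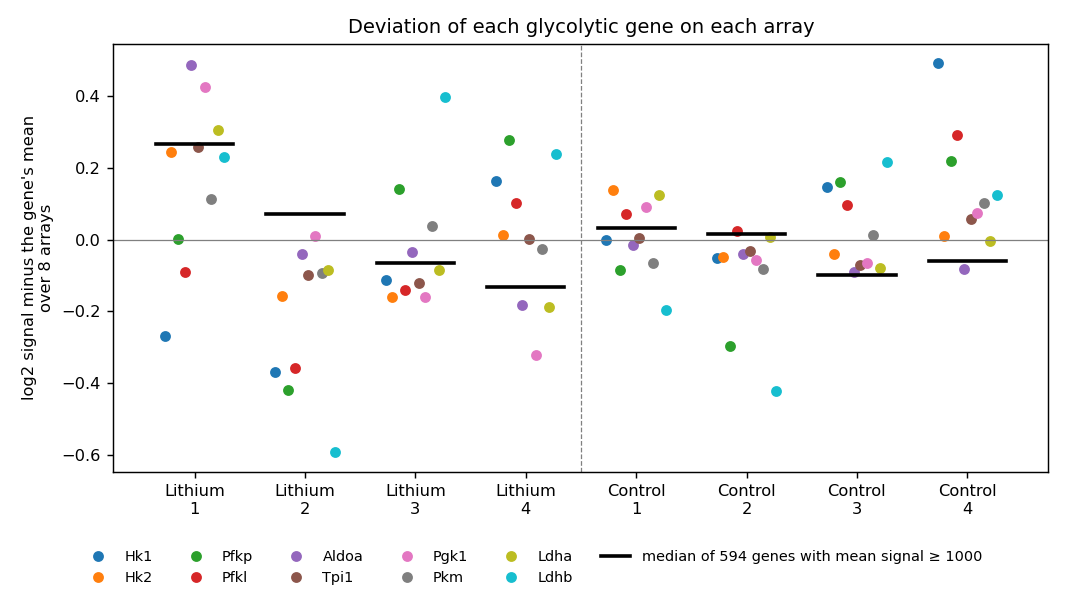
Log2 signal minus the gene's own mean over 8 arrays (y axis) for the 10 genes (coloured points) on the 4 lithium and 4 control arrays (x axis), with black bars for the median of 594 genes with a mean signal of at least 1000. On lithium array 1 the bar stands at 0.27 and 8 of the 10 genes lie above their means, and on lithium array 2 the Ldhb point is the lowest at -0.59.

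Numbers are shared by the groups, and arrays of the same number deviated together from their group means (correlations of 0.13 to 0.197 over probe sets). Some arrays of different numbers did so to a like degree, at 0.1315 for lithium array 1 with control array 2, 0.131 for lithium array 4 with control array 3 and 0.115 for lithium array 3 with control array 4. Every correlation within arrays 1 and 2 or within arrays 3 and 4 was positive. Every correlation across these 2 sets was negative, from -0.18 to -0.066. The number pairing is thus not clear of a split of arrays 1 and 2 from arrays 3 and 4. Differences within numbers were taken as a second view. Hk1 was lower with lithium in each of the 4 number pairs, by log2 differences of -0.27, -0.32, -0.26 and -0.33, and Pfkl in each of the 4, by -0.16, -0.38, -0.24 and -0.19. Over all genes, 18.3% were lower in all 4 number pairs and 15.2% higher, so 2 of 10 members is near that background. With the number as a block, the 95% interval of Hk1 narrowed to -0.44 to -0.15 (limma adjusted p = 0.09648) and that of Pfkl to -0.42 to -0.06 (limma adjusted p = 0.1621), and neither was called. The 3 genes whose centred signals lay nearest to those of Hk1 over the 8 arrays, among 5421 candidates, were Mbtps1, Txndc12 and Rps6ka3, with root mean square differences of 0.054, 0.058 and 0.066 on the log2 scale, against a median of 0.34. For Pfkl they were Farp1, Ifnar1 and S100a13, at 0.049, 0.051 and 0.061 against a median of 0.285.

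Whether the balance of isozymes moved was tested by the difference of their log2 signals within each array, of which only the change between groups can be read, since the level also holds the brightness of the probes. Pfkp minus Pfkl was 0.17, 0.02, 0.36 and 0.25 on lithium arrays, against -0.08, -0.24, 0.14 and 0.01 on control arrays. Lithium arrays were higher in each number pair, by 0.25, 0.26, 0.22 and 0.25, but the groups overlapped. The change was 0.24 (means 0.20 ± 0.14 with lithium and -0.04 ± 0.16 in controls, SD, n = 4 each), with an exact permutation p of 0.05714 over 70 splits, two-sided, and 0.1714 adjusted over the 3 pairs. It was 0.25 without lithium array 1, and 0.36 with all probe sets of a gene averaged (exact permutation p = 0.02857, the smallest that 70 splits allow, adjusted 0.08571). The averaging moved the log2 fold change of Pfkp from 0.00 to 0.20 and that of Pfkl from -0.24 to -0.15. It weights dim Pfkp probe sets, averaging 24.9 and 14.0 with lithium, equally with the brightest, at 423. With the brightest probe sets, an exact permutation within numbers gave p = 0.125, which is the lowest value that its 16 sign changes can reach.

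Hk2 minus Hk1 was 1.64, 1.34, 1.08 and 0.98 with lithium, against 1.27, 1.13, 0.94 and 0.65 in controls. It too was higher with lithium in each number pair, by 0.37, 0.21, 0.14 and 0.33, and the change of 0.26 had an exact permutation p of 0.2571 (two-sided, adjusted 0.386). Without lithium array 1 the change was 0.14. Ldha minus Ldhb was 1.94, 2.38, 1.39 and 1.44 with lithium, against 2.19, 2.30, 1.57 and 1.74 in controls, a change of -0.16 (exact permutation p = 0.6, adjusted 0.6). Leaving out 1 array moved that change from -0.36, without lithium array 2, to -0.03, without lithium array 3. In that pair array numbers differed more than the groups did, with arrays 1 and 2 above arrays 3 and 4 in both groups.

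**Figure D4:**
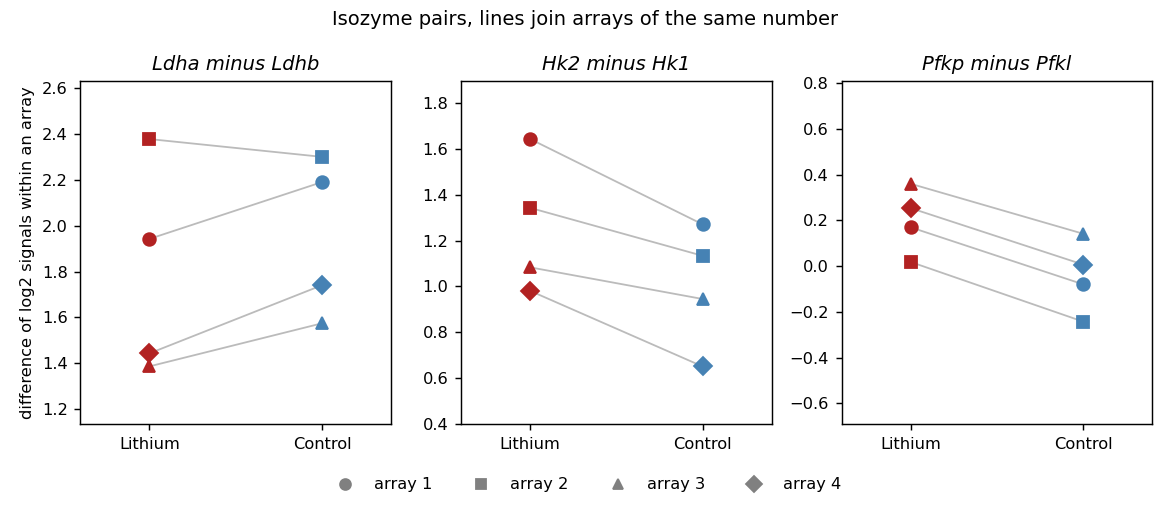
Difference of log2 signals of 2 isozymes within an array (y axis) for the lithium arrays (left) and the control arrays (right), with lines joining arrays of the same number. The lines of Pfkp minus Pfkl are nearly parallel, with lithium higher by 0.22 to 0.26, and the groups overlap in all 3 panels.

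The genes around the pathway were read from lists of the remaining glycolytic enzymes, the transporters, the regulators of fructose 2,6-bisphosphate, the entry of pyruvate into mitochondria, the pentose phosphate branch and the HIF-1 system. Of the other core glycolytic enzymes 11 of 16 were measured and 0 were called with limma, against 3.23% of all genes. Fold changes were positive for 6 and negative for 5, and 1 had an unadjusted p under 0.05, beside 22.0% of all genes. Pgam1, the next enzyme below Pgk1, averaged 1251 ± 127 with lithium and 1232 ± 56.9 in controls (SD, n = 4 each, log2 fold change 0.02). Eno2, the neuronal enolase, averaged 1534 ± 423 with lithium and 1280 ± 128 in controls, with a log2 fold change of 0.22. The 1 unadjusted p under 0.05 belonged to Aldoc, the brain aldolase found mainly in astrocytes and named here after its values were seen. It averaged 278 ± 60.7 with lithium and 529 ± 149 in controls, with a log2 fold change of -0.91 (limma adjusted p = 0.1136). It was called among probe sets at a level of 200 (limma adjusted p = 0.03352) and with a term that parts arrays 1 and 2 from arrays 3 and 4 (0.02188), and under none of the other 19 alternatives. The genes Gpi1 and Eno1 were not analysed here.

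Glucose and lactate transporters were measured for 8 of 8 genes, of which 0 were called, against 3.23% of all genes. Of the 8, 6 had negative fold changes and 3 an unadjusted p under 0.05, beside 50.3% and 22.0% of all genes. Slc2a1, the glucose transporter of barrier endothelium and glia, averaged 1390 ± 92.5 with lithium and 1506 ± 130 in controls (log2 fold change -0.11, limma adjusted p = 0.5668). Slc16a1, the lactate transporter of oligodendrocytes and endothelium, had signals of 1310, 1139, 1265 and 1193 with lithium, against 1517, 1517, 1360 and 1363 in controls. The groups did not overlap, as for 8.92% of all genes in that direction, with a log2 fold change of -0.23 (limma adjusted p = 0.162). Slc16a3, the lactate exporter of glycolytic cells, averaged 332 ± 61.3 with lithium and 444 ± 41.7 in controls (log2 fold change -0.43, limma adjusted p = 0.1882). Bsg, the chaperone of both lactate carriers and also named after its values were seen, averaged 817 ± 97.4 with lithium and 1029 ± 63.3 in controls, without overlap (log2 fold change -0.34, limma adjusted p = 0.1457).

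Regulators of fructose 2,6-bisphosphate, the activator of phosphofructokinase, and fructose-bisphosphatases were measured for 6 of 7 genes with 0 called, against 3.23% of all genes. Of the 6, 2 had an unadjusted p under 0.05, beside 22.0% of all genes. Pfkfb3 averaged 533 ± 37.6 with lithium and 611 ± 58.6 in controls (log2 fold change -0.19), and Tigar, a phosphatase that lowers fructose 2,6-bisphosphate, 231 ± 21.6 with lithium and 184 ± 27.9 in controls (log2 fold change 0.33, limma adjusted p = 0.2372). Genes of pyruvate entry were measured for 12 of 13 with 0 called. Of the 12, 9 were negative and 2 had an unadjusted p under 0.05, beside 50.3% and 22.0% of all genes. Pdk4, an inhibitory kinase of pyruvate dehydrogenase, averaged 577 ± 128 with lithium and 676 ± 74.4 in controls, and Pdha1, a subunit of that complex, 568 ± 42.5 with lithium and 614 ± 41.6 in controls, with log2 fold changes of -0.25 and -0.11. In the pentose phosphate branch 6 of 7 genes were measured and 0 called, against 3.23% of all genes, with 3 positive and 3 negative. Of the 6, 3 had an unadjusted p under 0.05, beside 22.0% of all genes, and 1 lay wholly lower with lithium, beside 8.92%. Tkt, transketolase, averaged 1052 ± 182 with lithium and 1008 ± 45.6 in controls (log2 fold change 0.05), and Pgd, an NADPH-forming enzyme, 615 ± 94.8 with lithium and 838 ± 98.7 in controls (log2 fold change -0.45, limma adjusted p = 0.1535).

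HIF-1 genes outside glycolysis were measured for 20 of 21, and 18 of the 20 had a negative fold change, beside 50.3% of all genes, with a median of -0.15. With quantile normalization 18 of the 20 were negative, with a median of -0.18. With arrays centred on their medians 13 of the 20 were negative, with a median of -0.06. Those array medians were signals of 12.3 to 17.5, the lowest being that of lithium array 1. Of the 20, 4 had an unadjusted p under 0.05, beside 22.0% of all genes, and 3 lay wholly lower with lithium, beside 8.92%. The 1 called gene was Ankrd37, a known hypoxia-induced gene, which had signals of 93.4, 97.3, 83.0 and 74.8 with lithium, against 187, 141, 143 and 176 in controls. Its groups did not overlap, and it fell by 0.89 on the log2 scale (SE 0.13, limma adjusted p = 0.03048, against 2.05% of all genes called lower). The call was lost with the number as a block (limma adjusted p = 0.08643), with arrays centred on their medians (0.1129) and without any 1 array (0.05151 to 0.08197).

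**Figure D5:**
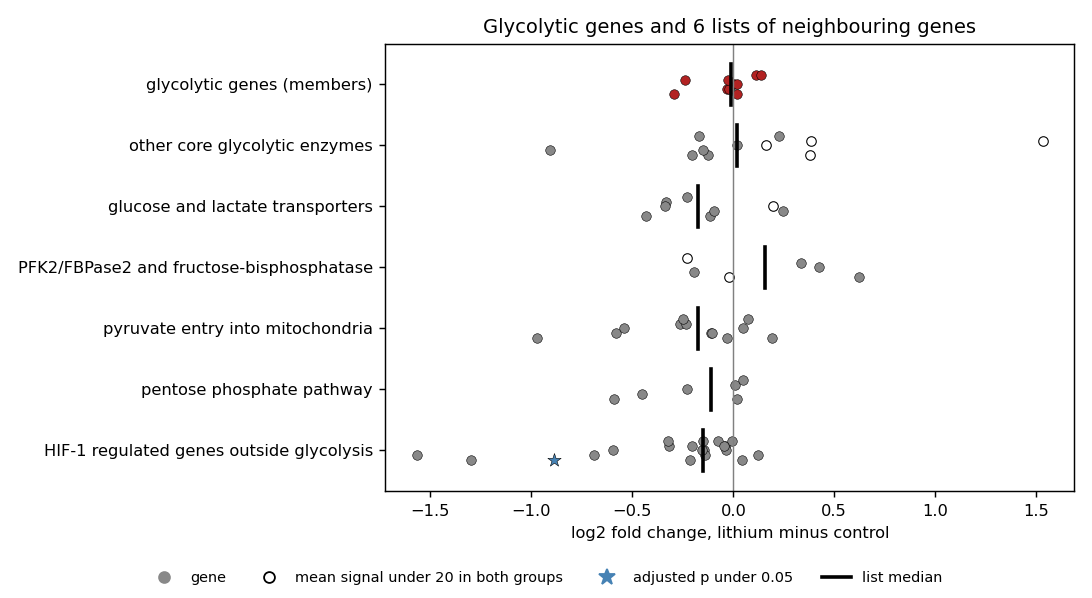
Log2 fold change, lithium minus control (x axis), of the 10 glycolytic genes and of the measured genes of 6 lists (y axis). Black bars are list medians, open points are genes with a mean signal under 20 in both groups and the star is Ankrd37, called lower. The glycolytic genes lie between -0.29 and 0.14 and the HIF-1 list reaches -1.57.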

How the data were processed

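RNA of 8 optic nerve samples, 4 lithium and 4 control, was hybridised to 1 Affymetrix mouse expression array each. The deposited intensities are MAS5 signals on a linear scale that the authors made, scaled to a trimmed mean of 100 per array. The methods also name a baseline step against the average of the samples, and the deposited values show no sign of it. The number of arrays limits the precision, and depth is not defined for them.

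Signals were floored at 1 (14.5% of tested values lay under it) and taken to log2. Linear models with moderated variances (limma 3.58.1, R 4.3.3) compared lithium with control on 45037 probe sets, with no block and with Benjamini-Hochberg adjustment over all of them and calls at 0.05. The 64 control probe sets were left out. Genes were named from the platform annotation, only from probe sets with 1 symbol. Isozyme pairs were tested by exact permutation over 70 splits, two-sided. The fit was tested on simulated data. Figures were drawn with matplotlib 3.10.9.

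Named genes were all 10 members, every gene of a list past the threshold and otherwise the 2 with the highest mean signal of a list, with Gapdh, Pgam1, Slc2a1, Slc16a1 and Slc16a3 in any case. The members and lists were chosen with earlier results of these data known. Alternatives changed the normalization, floor, filter, probe set summary, variance model, block and arrays used. The groups share replicate numbers, and same-numbered arrays deviated together (correlations of 0.13 to 0.197, mean 0.16), a pairing that rests on the data alone and was not clear of arrays with different numbers (up to 0.1315).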

Additional observations from a re-analysis of the deposited data

How the results depend on the processing

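None of the 10 genes was called under any of 22 alternatives, and none of the 26 probe sets under 21, with limma; over all probe sets the share called ran from 0% within 2 arrays a group to 8.15% among probe sets at a level of 200, and 6686 to 10300 had an unadjusted p under 0.05 in fits on all of them. The replicate block brought the probe sets called to 0.275%, against 2.33% without it, 0.375% to 1.37% were called with 1 array left out, and 6.29% with a term for arrays 1 and 2 against 3 and 4. The block changed no member's call. The median of the members ran from -0.09, without lithium array 1, to 0.08, with arrays centred on their medians. Hk1, Pfkl and Ldhb kept their direction throughout (-0.40 to -0.18, -0.32 to -0.16 and 0.021 to 0.36 with 1 array left out), as did the 3 isozyme pair changes, none of which passed after adjustment.

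Members near 0 changed sign. With arrays centred on their medians Hk2, Pgk1 and Ldha were 0.056, 0.065 and 0.062. With quantile normalization Pfkp, Tpi1 and Pkm were -0.0015, -0.037 and -0.035, and the same with quantile normalization and the replicate block, chosen after seeing the data. Within arrays 1 and 2 Pfkp, Pgk1 and Ldha were -0.016, 0.20 and 0.044, and within arrays 3 and 4 Aldoa, Tpi1 and Pkm were -0.023, -0.055 and -0.052. Tpi1 was -0.021 with all its probe sets averaged and -0.019 with array weights. Leaving out 1 array at a time gave -0.12 to 0.018 for Hk2, -0.097 to 0.14 for Pfkp, -0.030 to 0.19 for Aldoa, -0.063 to 0.063 for Tpi1, -0.17 to 0.081 for Pgk1, -0.019 to 0.053 for Pkm and -0.13 to 0.033 for Ldha, and the lowest values of Hk2, Aldoa, Tpi1, Pgk1, Pkm and Ldha came without lithium array 1. With 4 arrays a group the 95% interval of Ldhb reached 0.60 on the log2 scale to either side, the widest of the members, and with the replicate block it was -0.19 to 0.47.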

Other observations

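A few genes next to the glycolytic enzymes lay close to the threshold and were named after their values were seen. Of all 18193 genes, 1177 lay wholly higher with lithium and 1623 wholly lower. Pfkfb4, a kinase that makes fructose 2,6-bisphosphate, averaged 143 ± 11.95 with lithium and 107 ± 10.2 in controls, without overlap (SD, n = 4 each, log2 fold change 0.43, limma adjusted p = 0.07807). It was called under 2 of 20 alternatives, log2 of signal plus 16 (0.04824) and a term for arrays 1 and 2 against 3 and 4 (0.04607). Pdp1, a phosphatase that activates pyruvate dehydrogenase, averaged 38.4 ± 6.93 with lithium and 75.9 ± 17.4 in controls, also without overlap (log2 fold change -0.97, limma adjusted p = 0.06384). It was called under 5 of 20, namely quantile normalization (0.04643), signal plus 16 (0.0415), averaged probe sets (0.007182), a trended and robust variance (0.04688) and the term for arrays (0.01168). Egln3, an oxygen-sensing hydroxylase induced by HIF-1, averaged 182 ± 69.3 with lithium and 432 ± 102 in controls (log2 fold change -1.30, limma adjusted p = 0.09575), and was called under 2 of 21, among probe sets at a level of 200 (0.02303) and with the term for arrays (0.03342). Its lithium mean lay under 200, so it passed that filter only through its control mean. Pdk1, another HIF-1 target that inhibits pyruvate dehydrogenase, lay further from the threshold. It averaged 346 ± 73.6 with lithium and 515 ± 75.9 in controls (log2 fold change -0.58, limma adjusted p = 0.1369). It was called under 0 of 21 alternatives, with a lowest limma adjusted p of 0.05586.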
